A study of Mus musculus with 8 samples.

Results

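The collagen chain genes were taken as all protein-coding mouse genes whose symbol has the form Col, a number, a and a number, and there were 44 of them among the 47434 genes of the table (21792 of them protein-coding). RNA was measured in 4 libraries of G9a knockout cells and 4 libraries of wild-type cells, all from Hepa 1-6, a line derived from a mouse hepatoma that the labels describe as a liver cancer cell. G9a, encoded by Ehmt2, is a histone methyltransferase. No treatment, culture time or clone was given for either genotype, and the labels leave unsaid whether the libraries of 1 genotype are separate cultures, so p-values here measure the spread among libraries that may be technical repeats. Poly-A RNA was sequenced to between 58256100 and 75025236 counts per library. Levels are given as CPM, counts scaled to library size with TMM factors. Where a library has a count of 0, its level may be as high as 0.04 to 0.0515 CPM, a limit for counting error only.

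The targeted gene was checked first. Ehmt2 had 116.7, 116.7, 119.8 and 118.8 CPM in knockout libraries, against 345.4, 307.1, 297.6 and 306.6 CPM in wild-type libraries. All knockout libraries lay below all wild-type libraries, at a log2 fold change of -1.41 ± 0.05 (edgeR, adjusted p = 3.82e-10; here and after, ± of a fold change is its SE, with 4 libraries per genotype). Of 8 hepatocyte markers none was abundant enough to be tested, and 6 of them, Alb and Hnf4a among them, were listed at 0 in every library. The keratins Krt8 and Krt18, from a list of biliary and epithelial markers, were present at 800.7 ± 38.9 and 475.1 ± 26.7 CPM in knockout libraries, against 721.1 ± 30.0 and 489.1 ± 9.59 CPM in wild-type libraries (SD, n = 4 each). Of the same list, Krt19 averaged 51.95 CPM in the knockout and 53.2 CPM in the wild type. Cdh1 averaged 0.0996 CPM in the knockout and 0.125 CPM in the wild type, and Krt7 was listed at 0 in every library. Epcam and Sox9 are named with the other markers below.

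Collagens are the main structural proteins of the extracellular matrix, and each molecule is a rope of alpha chains wound into a helix. The chains are hydroxylated and folded in the endoplasmic reticulum, exported, trimmed outside the cell and crosslinked there. Fibrillar collagens such as types I, III and V form banded fibres, type IV forms the sheet of basement membranes, and type VI forms beaded filaments. In liver, type IV and type XVIII belong to vessel walls and ducts, while types I and III accumulate in fibrosis, where activated stellate cells and portal fibroblasts are the best known source.

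Collagen chain RNA was higher in the knockout. Of the 44 genes 31 passed the filter on low counts and were tested. Of these, 20 were higher in the knockout, 0 were lower and 11 did not pass, where 23.6% of all 15840 genes tested were higher, 23.6% were lower and 47.2% passed in either direction (edgeR, adjusted p under 0.05). No member was lower at an unadjusted p under 0.05 in edgeR (0 of 31), and DESeq2 and limma-voom also called 0 lower. Of the 20 members that averaged 1 CPM or more in the higher genotype 18 rose, where 27.0% of 12387 such genes were higher and 29.1% were lower. At least 2-fold rises numbered 14, against 7.89% of all genes tested. In 19 of the 31 members every knockout library lay above every wild-type library, against 22.5% of all genes tested. The median log2 fold change was 1.02 over the 31 members and 0.0037 over all genes tested. The filter can be passed through the genotype in which a gene is high, as with Col1a2, Col4a3, Col4a4, Col6a4 and Col22a1. The level of 1 CPM can be reached in the same way. These counts therefore describe the members that were tested and not all 44.

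**Figure D1:**
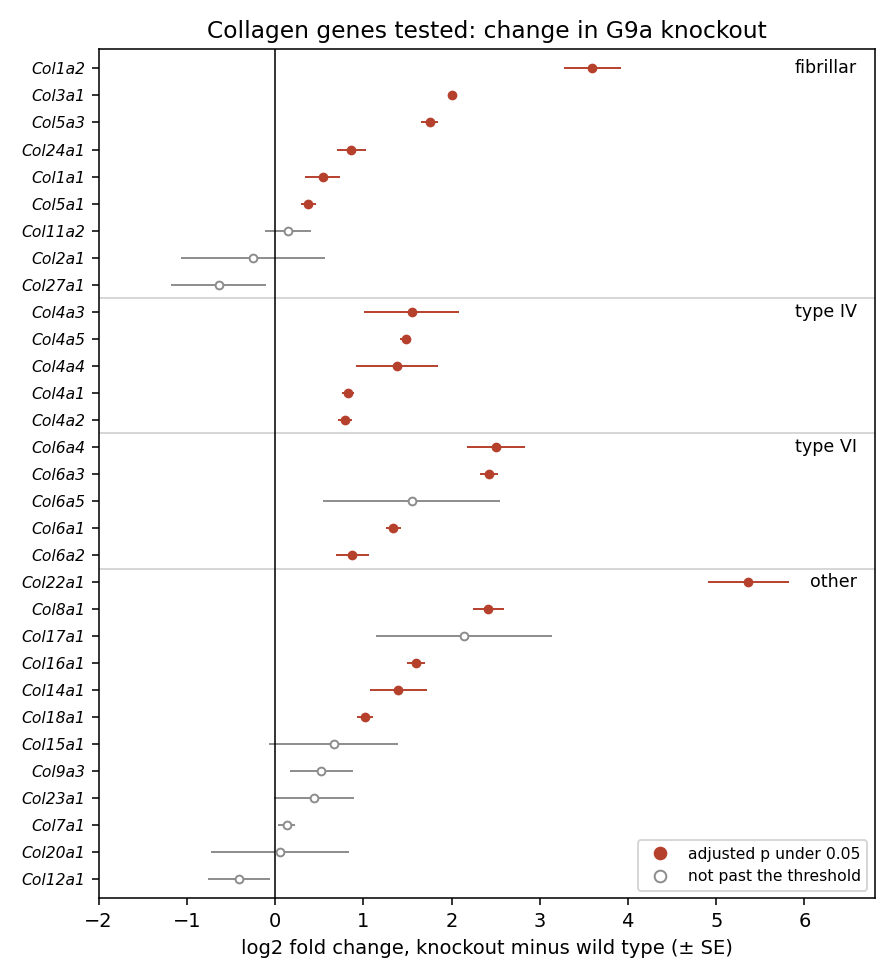
Log2 fold change (knockout minus wild type, horizontal axis) of the 31 collagen genes tested, by class, with bars of 1 SE. Filled points passed an adjusted p of 0.05 (edgeR), and all 20 of them lie right of 0, from 0.37 for Col5a1 to 5.36 for Col22a1.

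The genes that rose lie on many chromosomes, and the noncollagen genes around them did not shift as a group. For each member the median log2 fold change was taken over other genes with at least 5 CPM within 5 Mb, with all collagen genes left out. Some collagen genes that lie near each other rose together, such as Col4a1 and Col4a2, or Col6a1, Col6a2 and Col18a1 on chromosome 10. A median does not show that each single neighbour was unchanged. For the 20 genes that rose these medians lay between -0.14 and 0.08. Col9a3 and Col20a1, on chromosome 2, were the tested members with a shifted surrounding, at -0.55 each, and neither passed the test.

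The start regions of members that moved together are shown for the fibrillar genes Col3a1 and Col1a2, for the paired basement membrane genes Col4a1 and Col4a2, and for the network gene Col8a1. RefSeq windows (GRCm38.p6) of 300 bases, 250 before the start and 50 after it, were found for 35 of the 44 genes, 38 windows in all. Capitals mark 3 promoter motifs on either strand: the GC box GGGCGG, which reads CCGCCC on the other strand, the CCAAT box CCAAT, which reads ATTGG there, and the TATA box TATAAA, which reads TTTATA there. The windows lie at chr1:45311288-45311587 (plus strand) for Col3a1, chr6:4505368-4505667 (plus) for Col1a2, chr8:11312777-11313076 (minus) for Col4a1, chr8:11312555-11312854 (plus) for Col4a2 and chr16:57754688-57754987 (minus) for Col8a1, each read 5′ to 3′ along its gene.
Col3a1: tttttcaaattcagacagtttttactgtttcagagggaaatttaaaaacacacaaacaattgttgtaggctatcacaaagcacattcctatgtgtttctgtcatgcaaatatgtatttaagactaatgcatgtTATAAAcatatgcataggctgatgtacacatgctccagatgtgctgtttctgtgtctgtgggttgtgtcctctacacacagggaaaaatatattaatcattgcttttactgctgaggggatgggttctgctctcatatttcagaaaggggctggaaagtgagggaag
Col1a2: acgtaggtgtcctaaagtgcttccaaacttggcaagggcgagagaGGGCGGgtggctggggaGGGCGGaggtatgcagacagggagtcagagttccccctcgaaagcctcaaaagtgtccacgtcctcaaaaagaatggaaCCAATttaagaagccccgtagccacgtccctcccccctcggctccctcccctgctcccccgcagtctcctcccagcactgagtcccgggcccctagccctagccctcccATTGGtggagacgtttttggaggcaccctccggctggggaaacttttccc
Col4a1: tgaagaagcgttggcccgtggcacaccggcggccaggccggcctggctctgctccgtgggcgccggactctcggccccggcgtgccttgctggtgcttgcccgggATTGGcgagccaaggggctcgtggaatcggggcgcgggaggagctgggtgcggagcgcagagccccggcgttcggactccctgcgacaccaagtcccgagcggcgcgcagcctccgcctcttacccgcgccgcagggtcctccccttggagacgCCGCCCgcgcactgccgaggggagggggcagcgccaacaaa
Col4a2: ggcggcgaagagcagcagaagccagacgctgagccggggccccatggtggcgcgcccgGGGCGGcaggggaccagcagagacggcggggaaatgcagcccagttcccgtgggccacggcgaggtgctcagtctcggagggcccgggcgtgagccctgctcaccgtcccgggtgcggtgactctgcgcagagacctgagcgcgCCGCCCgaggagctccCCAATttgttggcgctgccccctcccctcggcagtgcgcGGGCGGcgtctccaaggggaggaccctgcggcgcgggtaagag
Col8a1: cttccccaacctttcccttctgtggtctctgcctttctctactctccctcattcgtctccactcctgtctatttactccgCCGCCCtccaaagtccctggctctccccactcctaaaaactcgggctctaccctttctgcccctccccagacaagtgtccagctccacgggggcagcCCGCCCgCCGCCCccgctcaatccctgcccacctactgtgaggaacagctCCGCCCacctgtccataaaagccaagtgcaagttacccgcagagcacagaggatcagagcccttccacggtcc

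Genes that rose did not share a promoter layout. Col3a1 had 1 TATA box and 0 CpG dinucleotides in its window, whereas Col1a2 had 2 GC boxes, 2 CCAAT boxes and 13 CpG. Col4a1 and Col4a2 had 37 and 33 CpG and no TATA box, and their windows, read from opposite strands, share 78 bases. Col8a1 had 4 GC boxes and 12 CpG. Over the 38 windows the GC box was present in 23 (60.5%), against 35.7% of the 32851 mouse windows in the same table. Those windows cover 27025 genes and were not limited to protein-coding genes, whereas all members are protein-coding. The CCAAT box was present in 13 (34.2%, against 37.4%) and the TATA box in 5 (13.2%, against 13.6%). The median number of CpG was 12.5 over 18 windows of genes that rose, with a range of 0 to 37, 11.5 over all 38 member windows, and 7 over all windows. A match is a run of letters and not a measured binding site.

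**Figure D2:**
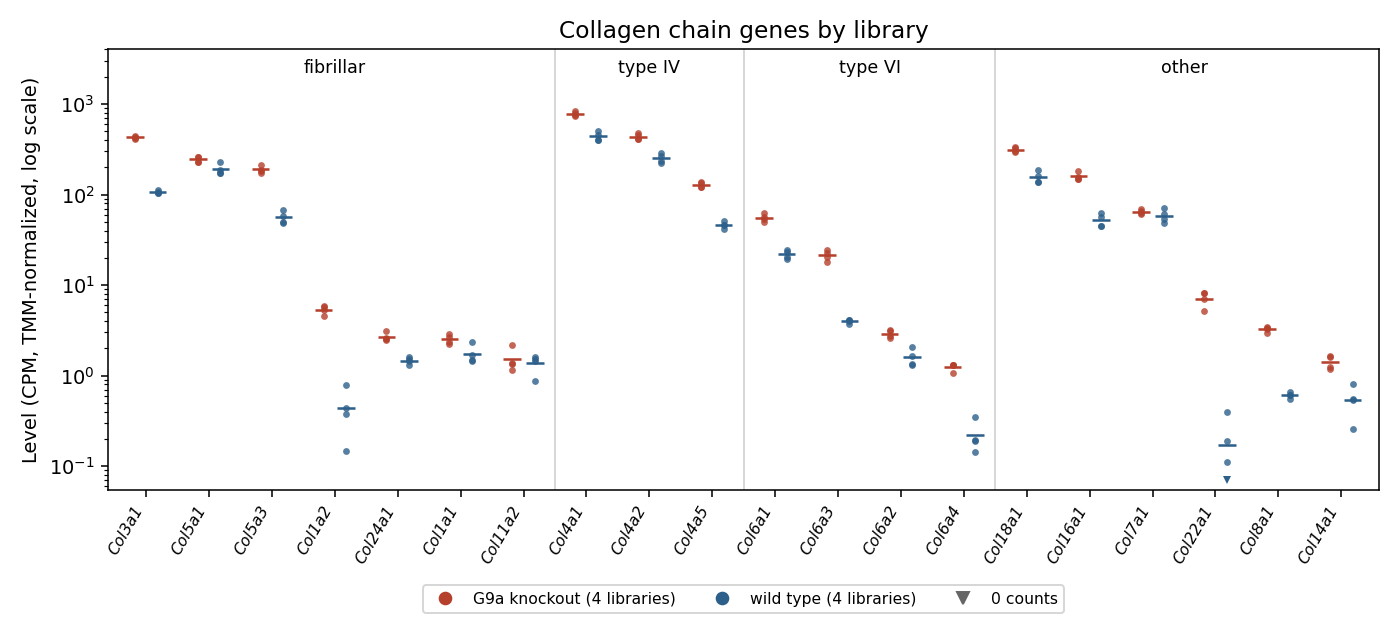
Levels (CPM, TMM-normalized, log axis) of the 20 collagen genes that averaged 1 CPM or more in the higher genotype, in each knockout library (left of each pair) and each wild-type library, by class. Horizontal ticks are means of 4 libraries. Col3a1, Col4a1, Col4a5 and Col18a1 stand apart between genotypes, while Col1a1, Col7a1 and Col11a2 overlap.

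Among the 11 fibrillar genes 9 were tested, 6 rose and 3 did not pass (23.6% higher and 23.6% lower over all genes tested). The median log2 fold change was 0.54, and 0.86 over the 7 genes of at least 1 CPM in the higher genotype. Of these Col1a2 reached that level in the knockout alone. Col3a1 (ENSMUSG00000026043, chromosome 1, 45311538 to 45349706, plus strand, GRCm38) encodes the single chain of type III collagen, which forms fine reticular fibres. Its level was 429.7, 414.5, 424.8 and 445.3 CPM in knockout libraries, against 113.3, 102.8, 107.7 and 103.5 CPM in wild-type libraries. The 4 libraries of each genotype lay close together and the genotypes were far apart, a ratio of means of 4.01. The log2 fold change was 2.004 ± 0.05 (edgeR, adjusted p = 5.82e-12). Col5a2, its neighbour 24614 bases away on the opposite strand and the usual partner of Col5a1 in type V collagen, was listed at 0 in all knockout libraries and had 8 counts in 1 wild-type library.

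The type V chains, which set fibril diameter, rose to unequal extents. Col5a3 (ENSMUSG00000004098, chromosome 9, 20770050 to 20815067, minus strand) had 173.3, 184.0, 187.0 and 213.3 CPM in knockout libraries, against 68.2, 48.9, 50.3 and 57.7 CPM in wild-type libraries. Every knockout value was more than double the highest wild-type value. Its log2 fold change was 1.75 ± 0.10 (edgeR, adjusted p = 1.47e-08). Col5a1 (ENSMUSG00000026837, chromosome 2, 27886425 to 28039514, plus strand) had 231.1, 261.7, 227.6 and 261.5 CPM in knockout libraries, against 225.9, 171.9, 171.8 and 187.8 CPM in wild-type libraries. The lowest knockout library stood just above wild-type library 1, which was higher than the other 3 wild-type libraries. The log2 fold change of Col5a1 was 0.37 ± 0.08 (edgeR, adjusted p = 0.00223).

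The chains of type I collagen, the main collagen of scar and bone, were both weakly expressed. Col1a2 (ENSMUSG00000029661, chromosome 6, 4504814 to 4541544, plus strand) had 5.67, 5.89, 4.54 and 5.298 CPM in knockout libraries, against 0.147, 0.439, 0.783 and 0.381 CPM in wild-type libraries. All knockout libraries were above all wild-type libraries, with 1492 counts over the knockout group and 116 over the wild-type group. Its log2 fold change was 3.59 ± 0.32 (edgeR, adjusted p = 1.06e-06). Part of this count lay on a transcript annotated as a retained intron, Col1a2-206, which had 266, 213, 157 and 213 counts in the knockout libraries and 0, 8, 13 and 0 in the wild-type libraries. The full-length coding transcript Col1a2-201 had 155, 191, 110 and 163 counts in the knockout libraries and 8, 20, 39 and 23 in the wild-type libraries. With protein-coding transcripts alone the log2 fold change of Col1a2 was 2.71 (edgeR, adjusted p = 0.000171).

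Col1a1 (ENSMUSG00000001506, chromosome 11, 94936224 to 94953042, plus strand) changed far less than its partner. It had 2.24, 2.90, 2.64 and 2.34 CPM in knockout libraries, against 1.47, 2.36, 1.67 and 1.44 CPM in wild-type libraries. Wild-type library 2 lay within the knockout range, so the genotypes overlapped. The log2 fold change was 0.54 ± 0.20 (edgeR, adjusted p = 0.0391), and the call was lost without any 1 of 6 libraries, with adjusted p of 0.0527 to 0.0956. Col24a1, a fibrillar chain known from bone and cornea, averaged 2.67 ± 0.27 CPM in the knockout and 1.47 ± 0.12 CPM in the wild type (SD, n = 4 each), a log2 fold change of 0.86 ± 0.17 (SE; edgeR, adjusted p = 0.000821).

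The cartilage chains stayed low. Col11a2 averaged 1.51 ± 0.46 CPM in the knockout and 1.37 ± 0.34 CPM in the wild type, and Col2a1 and Col27a1 had at most 0.302 CPM in any library. None of these 3 passed the test (edgeR, adjusted p from 0.366 to 0.833), and Col11a1 was listed at 0 in every library.

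All 5 type IV genes that were tested rose, of 6 (23.6% higher and 23.6% lower over all genes tested). Among them Col4a3 and Col4a4 passed the filter on low counts through the knockout libraries, and averaged 0.111 and 0.148 CPM in the wild type. The median log2 fold change was 1.38, which is the value of the scarce Col4a4. It was 0.83 over the 3 genes of at least 1 CPM in the higher genotype. Col4a1 and Col4a2 encode the chains of the network found in nearly all basement membranes, and they were the most abundant pair in these cells. Col4a1 (ENSMUSG00000031502, chromosome 8, 11198423 to 11312826, minus strand) had 754.3, 826.8, 742.4 and 792.8 CPM in knockout libraries, against 499.4, 401.4, 399.4 and 455.1 CPM in wild-type libraries. Col4a2 (ENSMUSG00000031503, chromosome 8, 11312805 to 11449287, plus strand) had 414.6, 471.9, 407.7 and 448.6 CPM in knockout libraries, against 289.4, 220.8, 232.0 and 265.0 CPM in wild-type libraries. For both genes all knockout libraries lay above all wild-type libraries, and wild-type library 1 was the highest of its group. The log2 fold changes were 0.83 ± 0.07 for Col4a1 (edgeR, adjusted p = 4.51e-07) and 0.79 ± 0.08 for Col4a2 (adjusted p = 2.69e-06). These genes run away from each other from start sites 21 bases apart, overlap by 22 bases, and have the overlapping start windows printed above.

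Col4a5 (ENSMUSG00000031274, chromosome X, 141475385 to 141689234, plus strand), a chain of the specialised basement membranes of kidney and other organs, had 132.7, 137.0, 122.4 and 122.3 CPM in knockout libraries, against 50.7, 41.8, 46.1 and 46.0 CPM in wild-type libraries. The genotypes were far apart, and the log2 fold change was 1.48 ± 0.06 (edgeR, adjusted p = 1.56e-09). Its partner in a head-to-head pair, Col4a6, starts 1309 bases away and had 18 counts over the knockout group and 1 over the wild-type group, too few to be tested. The kidney chains Col4a3 and Col4a4, another pair with starts 72 bases apart, had at most 0.563 CPM in any library. Their log2 fold changes were 1.55 ± 0.54 for Col4a3 (edgeR, adjusted p = 0.0306) and 1.38 ± 0.47 for Col4a4 (adjusted p = 0.0267), from 91 and 109 counts over the knockout group and 29 and 39 over the wild-type group. Leaving out single libraries ended the call of Col4a3 in 5 of 8 cases (adjusted p = 0.068 to 0.133) and that of Col4a4 in 5 of 8 (adjusted p = 0.0513 to 0.0777). Reads of Col4a3 and of C430014B12Rik, which overlaps it on the opposite strand at 0.208 CPM in the knockout and 0.177 CPM in the wild type, may not be separable, since the use of strand in counting is not given in the sources used here.

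Of the 6 type VI genes 5 were tested, 4 rose and 1 did not pass (23.6% higher and 23.6% lower over all genes tested). The median log2 fold change was 1.55, which is the value of Col6a5, the gene that did not pass. It was 1.88 over the 4 genes of at least 1 CPM in the higher genotype. Of these Col6a4 reached that level in the knockout alone, at 1.25 CPM on average against 0.219 CPM in the wild type. Type VI collagen is assembled from the Col6a1 and Col6a2 chains with Col6a3 or a related longer chain. Col6a1 (ENSMUSG00000001119, chromosome 10, 76708792 to 76726168, minus strand) had 54.1, 56.0, 49.4 and 62.2 CPM in knockout libraries, against 24.6, 20.4, 19.6 and 23.0 CPM in wild-type libraries. Its genotypes did not overlap, and its log2 fold change was 1.34 ± 0.09 (edgeR, adjusted p = 4.40e-08). Col6a3 (ENSMUSG00000048126, chromosome 1, 90765923 to 90843971, minus strand) had 20.5, 24.5, 18.01 and 22.5 CPM in knockout libraries, against 4.11, 4.06, 4.07 and 3.67 CPM in wild-type libraries. All knockout values lay far above the wild-type values, which were nearly equal, at a log2 fold change of 2.43 ± 0.10 (edgeR, adjusted p = 1.56e-09).

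Col6a4 (ENSMUSG00000032572, chromosome 9, 105989454 to 106096783, minus strand), a longer chain related to Col6a3, had 1.31, 1.31, 1.31 and 1.08 CPM in knockout libraries, against 0.196, 0.348, 0.188 and 0.143 CPM in wild-type libraries. The genotypes were separate, and the log2 fold change was 2.51 ± 0.33 (edgeR, adjusted p = 3.21e-05). Col6a2, which every type VI molecule needs, averaged 2.91 ± 0.29 CPM in the knockout and 1.59 ± 0.35 CPM in the wild type (SD, n = 4 each), a log2 fold change of 0.87 ± 0.19 (SE; edgeR, adjusted p = 0.00176). Its level was far under that of Col6a1 in both genotypes. Col6a5 had 66 counts over the knockout group and 21 over the wild-type group and did not pass (edgeR, adjusted p = 0.23), and Col6a6 had at most 4 counts in a library.

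The remaining 21 genes are more varied in function. Of these 12 were tested, 5 rose and 7 did not pass (23.6% higher and 23.6% lower over all genes tested). Col18a1 (ENSMUSG00000001435, chromosome 10, 77052178 to 77166548, minus strand), a basement membrane collagen whose end is released as endostatin, had 295.0, 324.3, 300.4 and 334.0 CPM in knockout libraries, against 185.2, 137.2, 137.2 and 159.0 CPM in wild-type libraries. The genotypes did not overlap, and the log2 fold change was 1.02 ± 0.09 (edgeR, adjusted p = 5.93e-07). The gene has a start upstream, used for its short form, and another downstream, used for longer forms known from liver. The transcript with the upstream start took 97.0% ± 2.41 of its counts in the knockout and 97.8% ± 3.04 in the wild type (SD, n = 4 each), a difference that did not pass an exact two-sided permutation test (p = 0.6). Slc19a1 overlaps Col18a1 by 8825 bases on the opposite strand, at 69.99 CPM in the knockout and 94.9 CPM in the wild type, so reads may be shared.

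Fibril-associated collagens sit on the surface of banded fibrils, and of 9 such genes 6 were tested and 3 rose (23.6% over all genes tested). Col16a1 (ENSMUSG00000040690, chromosome 4, 130047840 to 130099283, plus strand) had 149.0, 149.3, 154.7 and 180.1 CPM in knockout libraries, against 62.7, 45.2, 45.0 and 56.8 CPM in wild-type libraries. All knockout values were more than double the wild-type values, and the log2 fold change was 1.60 ± 0.10 (edgeR, adjusted p = 5.28e-08). Transcripts annotated as protein-coding took 54.4% of its summed counts in the knockout and 43.4% in the wild type, so much of this RNA was assigned to noncoding transcripts of the gene. The split was unstable among libraries. Coding and noncoding counts were 937 and 2905 in wild-type library 1, and 2245 and 860 in wild-type library 3. They were 7925 and 3540 in knockout library 1, and 3868 and 5332 in knockout library 3. A difference between genotypes in the coding share was not tested.

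Col22a1 (ENSMUSG00000079022, chromosome 15, 71795795 to 72034227, minus strand), known from muscle-tendon junctions, showed the largest fold change of the 31 genes. It had 5.16, 6.96, 8.12 and 8.12 CPM in knockout libraries, against 0.391, 0, 0.188 and 0.111 CPM in wild-type libraries. There were 1941 counts over the knockout group and 44 over the wild-type group, of which 24 came from wild-type library 1. The log2 fold change was 5.36 ± 0.46 (edgeR, adjusted p = 6.43e-07), 6.11 without wild-type library 1 and 6.26 with limma-voom. Col14a1 (ENSMUSG00000022371, chromosome 15, 55307750 to 55520803, plus strand), which coats type I fibrils, had 1.63, 1.62, 1.19 and 1.25 CPM in knockout libraries, against 0.538, 0.257, 0.551 and 0.810 CPM in wild-type libraries. Its genotypes were separate, at a log2 fold change of 1.40 ± 0.32 (edgeR, adjusted p = 0.00268).

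Of the network-forming genes outside type IV, Col8a1 (ENSMUSG00000068196, chromosome 16, 57624258 to 57754737, minus strand), a collagen of vessel walls and the cornea, had 2.95, 3.25, 3.40 and 3.38 CPM in knockout libraries, against 0.604, 0.605, 0.551 and 0.667 CPM in wild-type libraries. The libraries of each genotype lay close together, and the log2 fold change was 2.42 ± 0.18 (edgeR, adjusted p = 1.62e-07). Its partner chain Col8a2 had 4 counts over each group. Col10a1, the collagen of hypertrophic cartilage, had 35 counts over the knockout group and 10 over the wild-type group and was not tested. It lies within Nt5dc1 on the opposite strand, at 15.8 CPM in the knockout and 12.5 CPM in the wild type, so its few reads may belong to either gene.

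Col7a1 (ENSMUSG00000025650, chromosome 9, 108953586 to 108984875, plus strand), the anchoring fibril collagen of skin, was the abundant member that did not pass. It had 60.5, 65.5, 62.0 and 69.1 CPM in knockout libraries, against 71.3, 48.7, 54.1 and 60.3 CPM in wild-type libraries. Wild-type library 1 was the highest of all 8 and the genotypes overlapped. The log2 fold change was 0.13 ± 0.10 (edgeR, adjusted p = 0.279), and without wild-type library 1 it was 0.24 and passed (adjusted p = 0.0159). Transmembrane chains were scarce: Col17a1, a hemidesmosome protein, and Col23a1 had at most 0.491 CPM in any library and did not pass, and Col13a1 and Col25a1 were listed at 0. Col9a3, Col12a1, Col15a1 and Col20a1 were likewise tested and did not pass (edgeR, adjusted p from 0.255 to 0.961), at means under 1 CPM in both genotypes.

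The 13 genes that were not tested comprised 6 listed at 0 in all 8 libraries (Col9a1, Col11a1, Col13a1, Col19a1, Col25a1 and Col26a1) and 7 with at most 14 counts in any library. Whether a listed 0 is missing RNA or a failed estimate was not tested. Itgb1, the integrin subunit that adherent cells in general make, was also listed at 0 throughout. It was so together with all protein-coding genes from it to the end of chromosome 8, and the 6 collagen genes lie on other chromosomes.

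Summed over the members, collagen RNA was 2852 ± 134 CPM in the knockout and 1392 ± 163 CPM in the wild type (SD, n = 4 each), or 0.293% and 0.135% of all counts. The knockout libraries held 2729 to 2986 CPM and the wild-type libraries 1255 to 1607 CPM, with no overlap. In bulk RNA a larger share of cells that make collagen and more collagen RNA per cell cannot be told apart. Divided by transcript length, the sum was 466.3 ± 21.7 CPM per kilobase in the knockout and 219.3 ± 25.5 CPM per kilobase in the wild type.

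**Figure D3:**
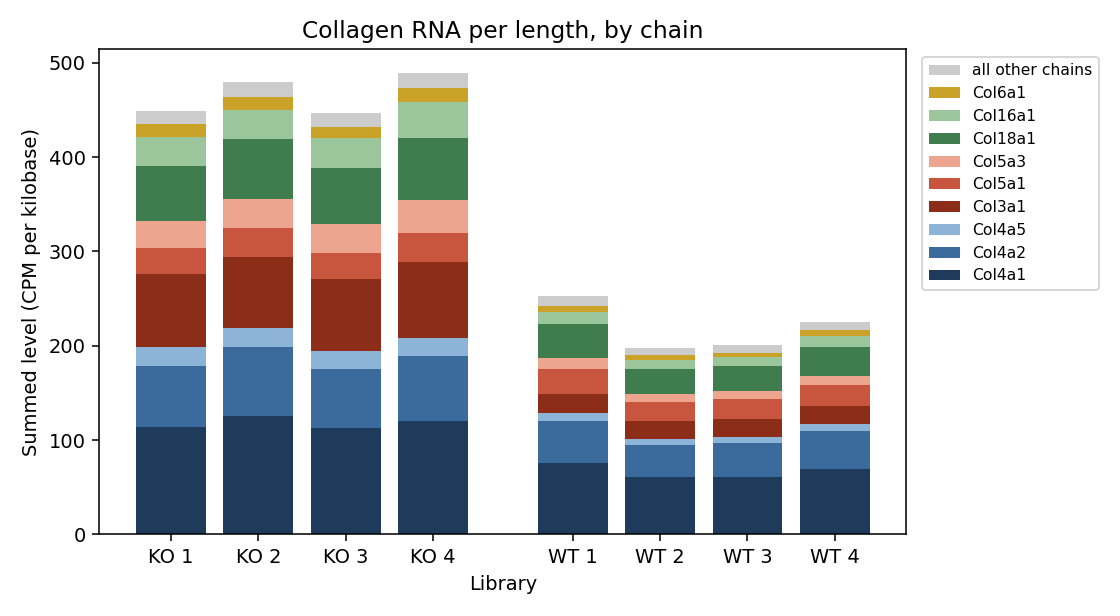
Summed collagen level (CPM per kilobase, linear axis from 0) in each of the 4 knockout and 4 wild-type libraries, stacked by chain. The knockout bars reach 446.7 to 489.5 and the wild-type bars 197.9 to 252.8, and of the 9 chains drawn singly Col3a1 gains most as a share of the bar, at 16.6% in the knockout and 8.83% in the wild type.

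The makeup of this sum shifted. Type IV chains took 44.0% ± 1.33 of the length-scaled sum in the knockout and 51.3% ± 0.51 in the wild type, and fibrillar chains took 30.0% ± 0.79 in the knockout and 23.7% ± 0.74 in the wild type (SD, n = 4 each). The libraries of the genotypes did not overlap in either share. Col3a1 alone took 16.6% ± 0.78 in the knockout and 8.83% ± 0.78 in the wild type, while Col5a1 took 6.26% ± 0.20 in the knockout and 10.3% ± 0.30 in the wild type. Type VI chains took 3.61% ± 0.19 in the knockout and 2.84% ± 0.10 in the wild type.

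In the knockout the order of length-scaled levels was led by Col4a1 at 117.8 ± 5.81 CPM per kilobase, then Col3a1 at 77.1 ± 2.31, Col4a2 at 67.6 ± 4.65 and Col18a1 at 61.9 ± 3.69. The ranges of Col4a2 and Col18a1 overlapped, and the other neighbours in this order did not. Col16a1, Col5a3 and Col5a1 followed at 32.9, 31.2 and 29.2 CPM per kilobase, with overlapping ranges between neighbours, before Col4a5 at 19.8, Col6a1 at 13.5, Col7a1 at 7.09 and Col6a3 at 2.42. In the wild type Col4a1 led at 66.4 ± 7.25 CPM per kilobase, then Col4a2 at 39.1 ± 4.85, Col18a1 at 30.5 ± 4.503, Col5a1 at 22.5 ± 3.04 and Col3a1 at 19.2 ± 0.87. There too only Col4a2 and Col18a1 overlapped among these first 5. Col3a1 thus ranked 2 in the knockout and 5 in the wild type.

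Chains that join in 1 molecule were compared as ratios of length-scaled levels within each library, for the 4 of 10 chain pairs in which both chains averaged at least 1 CPM over all 8 libraries. Col1a2 met this level through the knockout libraries alone, so the Col1a1 to Col1a2 ratio is given as a description, and its test is not used. Exact two-sided permutation tests over the 8 libraries were used, adjusted over the 3 other pairs, and 0.0286 is the smallest p this design allows. The Col4a1 to Col4a2 ratio was 1.77, 1.71, 1.77 and 1.72 in the knockout libraries, against 1.68, 1.77, 1.68 and 1.67 in the wild-type libraries. The values overlapped, the log2 ratio differed by 0.04, and the difference did not pass (exact p = 0.171, adjusted p = 0.171).

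Both type VI ratios differed between genotypes. The Col6a1 to Col6a3 ratio was 5.69, 4.93, 5.92 and 5.95 in the knockout libraries, against 12.9, 10.8, 10.4 and 13.5 in the wild-type libraries, a log2 difference of -1.08 (exact p = 0.0286, adjusted p = 0.0429). Every knockout ratio was lower, so Col6a3 gained on Col6a1. The Col6a1 to Col6a2 ratio was 20.7, 17.9, 18.05 and 19.4 in the knockout libraries, against 11.9, 12.3, 14.8 and 17.2 in wild-type libraries (log2 difference 0.45, exact p = 0.0286, adjusted p = 0.0429). The Col1a1 to Col1a2 ratio averaged 0.336 ± 0.056 in the knockout and 3.74 ± 2.38 in the wild type (SD, n = 4 each), which restates the larger rise of Col1a2. Its wild-type values ranged from 1.496 to 7.03, on 9 to 54 counts of Col1a2 per library, and the summed length includes the retained-intron transcript of Col1a2.

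**Figure D4:**
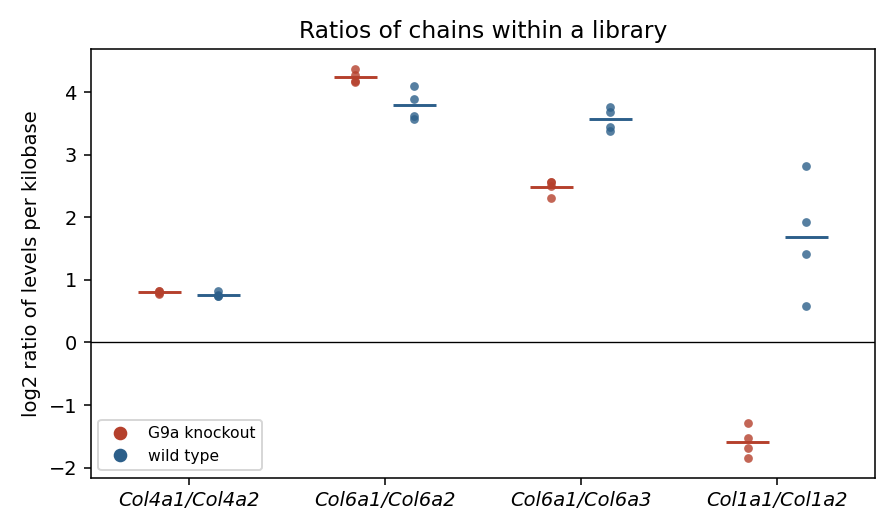
Log2 ratio of length-scaled levels of paired chains (vertical axis) in each knockout library (left of each pair) and each wild-type library, with means as ticks. The Col4a1 to Col4a2 ratios coincide near 0.8, and the 3 other ratios are separate between genotypes.

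Genes that act on collagen were described from lists grouped by step, and each count of calls is to be read against the shares over all genes tested, 23.6% higher and 23.6% lower. Of 20 genes for chain modification and folding 18 were tested, 12 rose, 1 fell and 5 did not pass (23.6% in each direction over all genes), with a median log2 fold change of 0.22. The lysyl hydroxylases, whose products carry crosslinks and sugars, all rose: Plod2 averaged 84.7 ± 1.82 CPM in the knockout and 52.99 ± 0.58 CPM in the wild type, Plod1 averaged 109.8 ± 1.79 CPM in the knockout and 71.7 ± 6.46 CPM in the wild type, and Plod3 averaged 186.8 ± 11.5 CPM in the knockout and 105.5 ± 11.1 CPM in the wild type. Their log2 fold changes were 0.68 ± 0.04, 0.61 ± 0.06 and 0.82 ± 0.07 (SE; edgeR, adjusted p = 5.15e-08, 2.42e-06 and 7.14e-07). Genes around Plod3 on chromosome 5 had a median log2 fold change of 0.32, and the part of this shift in its rise was not tested. P4ha3, a catalytic subunit of prolyl 4-hydroxylase, which stabilises the helix, averaged 14.9 ± 0.36 CPM in the knockout and 4.48 ± 1.10 CPM in the wild type.

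The prolyl 3-hydroxylase P3h2, which acts on type IV chains, averaged 11.1 ± 0.95 CPM in the knockout and 3.36 ± 0.73 CPM in the wild type. The proline isomerase Fkbp14 averaged 3.35 ± 0.07 CPM in the knockout and 1.72 ± 0.15 CPM in the wild type. The log2 fold changes of P4ha3, P3h2 and Fkbp14 were 1.73 ± 0.14, 1.72 ± 0.14 and 0.97 ± 0.15 (SE; edgeR, adjusted p = 4.44e-07, 4.92e-07 and 0.000125). Crtap, a partner of prolyl 3-hydroxylase, was the gene that fell, at 105.6 ± 1.42 CPM in the knockout and 115.9 ± 5.78 CPM in the wild type (log2 fold change -0.13; edgeR, adjusted p = 0.0323), and Serpinh1, the collagen chaperone, did not pass (0.08, adjusted p = 0.0989). Both were named after their values were seen.

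Genes for export of procollagen from the endoplasmic reticulum changed by small amounts. Of 11 such genes 10 were tested, 1 rose, 4 fell and 5 did not pass (23.6% higher and 23.6% lower over all genes), with a median log2 fold change of -0.08. Mia2, a cargo factor at exit sites, averaged 106.5 ± 3.53 CPM in the knockout and 135.0 ± 7.35 CPM in the wild type, and its log2 fold change was -0.34 ± 0.05 (edgeR, adjusted p = 8.90e-05). The vesicle coat genes Sec23a and Sec24d fell by 0.31 ± 0.06 and 0.21 ± 0.04 on the log2 scale (adjusted p = 0.00129 and 0.00157). Creb3l2, a membrane-bound transcription factor of the secretory pathway, fell by 0.29 ± 0.08 (adjusted p = 0.0106) with overlapping libraries. The coat GTPase gene Sar1a rose by 0.17 ± 0.04 (adjusted p = 0.003), and Sar1b did not pass (0.18 ± 0.07, adjusted p = 0.0591).

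Genes for trimming and crosslinking outside the cell were higher. Of 15 such genes 9 were tested and all 9 rose (23.6% over all genes, and 27.0% over those of at least 1 CPM in the higher genotype), with a median log2 fold change of 0.73, while Lox and Adamts2 were listed at 0 in every library. Pcolce, which speeds removal of the procollagen end, averaged 633.1 ± 30.6 CPM in the knockout and 258.7 ± 22.4 CPM in the wild type (log2 fold change 1.29 ± 0.06; edgeR, adjusted p = 3.12e-09). Its surroundings on chromosome 5 had the same median of 0.32 as those of Plod3. Pcolce2 averaged 144.0 ± 6.06 CPM in the knockout and 86.98 ± 2.15 CPM in the wild type (0.73 ± 0.05, adjusted p = 4.52e-08).

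The lysyl oxidase-like enzymes, which start crosslinks between chains, included the largest change of that list. Loxl3 averaged 30.4 ± 2.25 CPM in the knockout and 9.46 ± 0.38 CPM in the wild type, a log2 fold change of 1.69 ± 0.07 (edgeR, adjusted p = 1.62e-09). Loxl2 averaged 152.8 ± 9.64 CPM in the knockout and 64.4 ± 2.52 CPM in the wild type (1.25 ± 0.05, adjusted p = 1.79e-09), and Loxl4 92.3 ± 5.41 CPM in the knockout and 42.3 ± 3.87 CPM in the wild type (1.13 ± 0.07, adjusted p = 3.44e-08). Pxdn, the peroxidase that links type IV chains, averaged 347.9 ± 26.8 CPM in the knockout and 256.8 ± 10.5 CPM in the wild type (0.44 ± 0.06, adjusted p = 2.70e-05).

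**Figure D5:**
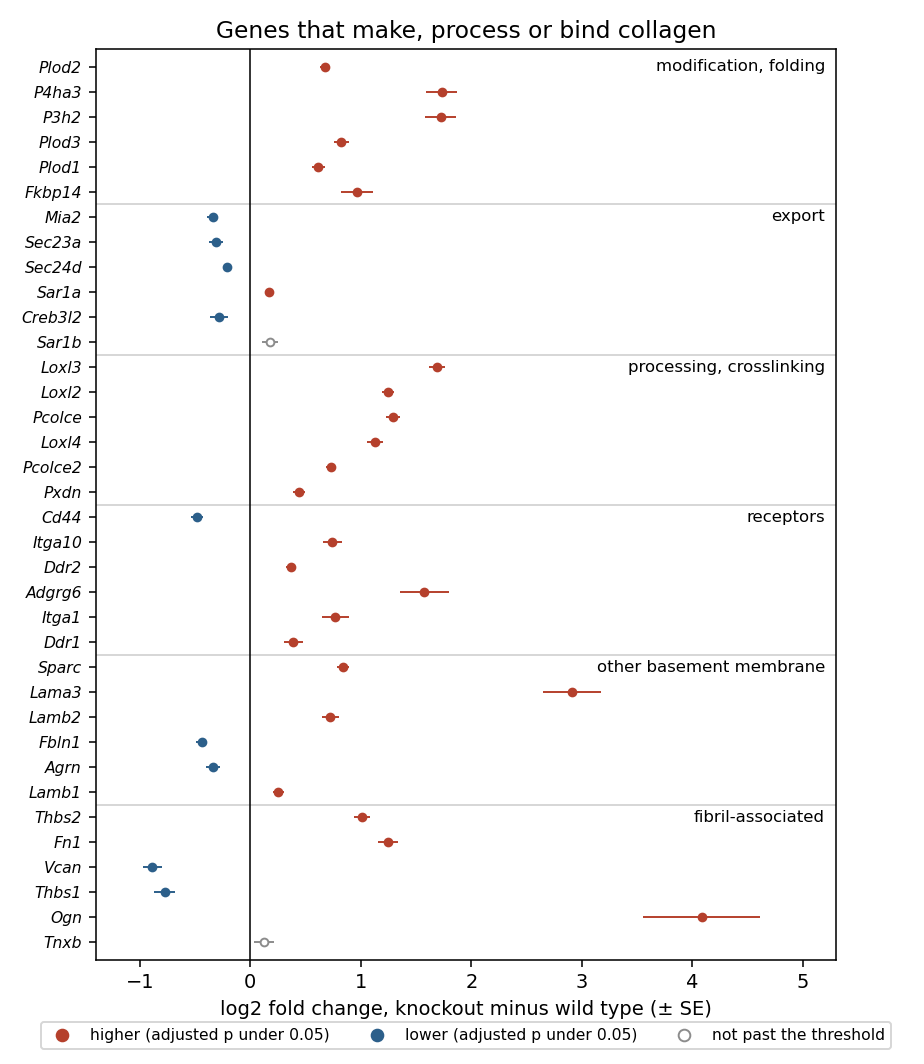
Log2 fold change (knockout minus wild type, with bars of 1 SE) of up to 6 genes of lowest p from each list of genes that make, process or bind collagen. The 6 processing and crosslinking genes shown lie between 0.44 and 1.69, whereas 4 of the 6 export genes shown lie left of 0.

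Of 14 collagen receptor genes 9 were tested, 7 rose, 1 fell and 1 did not pass (23.6% higher and 23.6% lower over all genes). The integrin subunits Itga1 and Itga10, which bind collagen, averaged 15.8 ± 1.95 and 16.6 ± 1.43 CPM in the knockout and 9.25 ± 1.47 and 9.93 ± 0.75 CPM in the wild type, with log2 fold changes of 0.77 ± 0.12 and 0.74 ± 0.09 (edgeR, adjusted p = 0.000158 and 1.39e-05). The discoidin domain kinases Ddr1 and Ddr2 rose by 0.39 ± 0.08 and 0.37 ± 0.05 on the log2 scale (adjusted p = 0.00172 and 3.28e-05). Adgrg6, an adhesion receptor for type IV collagen, rose by 1.57 ± 0.22 (adjusted p = 6.04e-05) from a low level. Cd44, mainly a hyaluronan receptor, averaged 327.1 ± 16.2 CPM in the knockout and 456.5 ± 32.7 CPM in the wild type (-0.48 ± 0.06, adjusted p = 1.13e-05), where neighbouring genes on its chromosome had a median of -0.66.

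Matrix partners changed in both directions. Of 19 other basement membrane genes 16 were tested, 8 rose, 3 fell and 5 did not pass, the falls being near the 23.6% lower over all genes (23.6% higher). Lama2, Smoc1 and Smoc2, which rose, passed the filter on low counts through the knockout libraries. In the wild type they averaged 0.0435, 0.0159 and 0.134 CPM. Where either genotype averaged 1 CPM or more, 5 of 12 rose, against 27.0% of all genes at that level. Lama3 and Lamb3 reached it in the knockout alone. Sparc, a collagen-binding glycoprotein, averaged 826.8 ± 26.8 CPM in the knockout and 461.9 ± 35.5 CPM in the wild type (log2 fold change 0.84 ± 0.05; edgeR, adjusted p = 4.40e-08). The laminin chains Lamb2, Lamb1 and Lama3 rose by 0.72 ± 0.07, 0.25 ± 0.05 and 2.91 ± 0.26 (adjusted p = 3.23e-06, 0.000541 and 1.13e-06), whereas Fbln1 and Agrn fell by 0.44 ± 0.05 and 0.34 ± 0.06 (adjusted p = 7.87e-06 and 0.000444). Of 15 fibril-associated proteoglycans and glycoproteins 8 were tested, 4 rose, 2 fell and 2 did not pass, the falls again near the 23.6% lower over all genes (23.6% higher). Bgn and Ogn, which rose, likewise passed the filter through the knockout libraries, and averaged 0.203 and 0.088 CPM in the wild type. Where either genotype averaged 1 CPM or more, 3 of 6 rose, and of these Ogn reached that level in the knockout alone.

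Fibronectin, Fn1, a scaffold for collagen assembly, averaged 262.5 ± 39.7 CPM in the knockout and 110.8 ± 8.64 CPM in the wild type (log2 fold change 1.25 ± 0.09; edgeR, adjusted p = 1.66e-07). Thbs2, which affects fibril shape, rose by 1.009 ± 0.07 (adjusted p = 1.02e-07) and Ogn, a small proteoglycan, by 4.09 ± 0.53 (adjusted p = 2.94e-05) to 1.53 ± 0.50 CPM in the knockout, against 0.088 ± 0.066 CPM in the wild type. Vcan fell by 0.89 ± 0.08 (adjusted p = 1.43e-06) and Thbs1 by 0.77 ± 0.10 (adjusted p = 1.81e-05). The neighbours of Thbs1 had a median of -0.65. Tnxb did not pass (0.13 ± 0.09, adjusted p = 0.273).

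Markers of cells that make collagen in liver were read beside these results. Of 15 fibroblast and stellate cell genes 8 were tested, 4 rose, 0 fell and 4 did not pass (23.6% higher and 23.6% lower over all genes), and their summed level was 206.1 to 220.7 CPM in knockout libraries and 165.4 to 171.1 CPM in wild-type libraries. Nearly all of that sum was Pdpn, at 154.7 ± 6.86 CPM in the knockout and 116.0 ± 3.23 CPM in the wild type, and Twist1, at 45.7 ± 3.03 CPM in the knockout and 46.3 ± 3.02 CPM in the wild type. Des and Reln rose by 1.74 ± 0.13 and 2.62 ± 0.39 (edgeR, adjusted p = 1.47e-07 and 0.0001), and Acta2 by 3.14 ± 0.61 (adjusted p = 0.000881) at under 1 CPM on average. Acta2 and Reln passed the filter on low counts through the knockout libraries, and averaged 0.094 and 0.254 CPM in the wild type. Of the 5 markers with at least 1 CPM in the higher genotype 3 rose and 2 did not pass (27.0% of such genes were higher). Neighbouring genes of Reln had a median log2 fold change of 0.39, and the part of this shift in its rise was not tested. Pdgfra averaged 1.13 ± 0.28 CPM in the knockout and 1.71 ± 0.41 CPM in the wild type and did not pass (-0.60 ± 0.25, adjusted p = 0.0687). The neighbours of Pdgfra had a median of 0.36. The stellate and fibroblast markers Lrat, Lum and Hand2 were listed at 0 in every library, and Dcn, Thy1 and Fap averaged at most 0.0704 CPM in either genotype.

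Pdgfrb averaged 0.055 CPM in the knockout and 0.186 CPM in the wild type and did not pass (edgeR, adjusted p = 0.178). Of 10 endothelial genes 5 were tested and 1 rose (Cdh5), a share near the 23.6% higher over all genes, with summed levels of 5.57 to 7.58 CPM in knockout libraries and 3.65 to 5.12 CPM in wild-type libraries. Of 8 macrophage genes 4 were tested, 1 rose (Ptprc) and 1 fell (Cd14), and of 7 biliary and epithelial genes 5 were tested, 1 rose (Krt8) and 2 fell (Epcam and Sox9), small counts beside the 23.6% higher and 23.6% lower over all genes. The summed macrophage level was 15.03 to 19.2 CPM in knockout libraries and 18.02 to 20.8 CPM in wild-type libraries. The part of these markers in the collagen results was not tested.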

How the data were processed

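Poly-A RNA of 8 Hepa 1-6 libraries was read from 1 table of the whole series. The authors deposited estimated counts per transcript, which are whole numbers without normalization by their values, with library names per the file headers. FastQC, Trimmomatic, HISAT2 and the build GRCm38.p6 were named, without role or version, per the submitters' processing notes. Which program counted reads, with or without strand, and on which annotation, is not given in the sources used here. TRIzol extraction and a SMARTer mRNA kit were used per the labels' protocols.

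Of 115220 transcripts, 114332 (99.23%) matched GENCODE mouse release 21 (GRCm38), and their counts were summed over 47434 genes. The 888 unmatched transcripts held 0.148% to 0.17% of a library's counts and were left out. The genotypes were tested in edgeR 4.0.16 (R 4.3.3) by its quasi-likelihood method (two-sided, TMM, filterByExpr, genotype as the only term), with Benjamini-Hochberg adjustment over all 15840 genes tested. A log2 fold change is that of knockout over wild type, and its standard error (SE) is its size over the root of the F statistic. A gene rose or fell where its adjusted p was under 0.05. Levels per kilobase use the count-weighted transcript length. Reads carry no molecular identifiers.

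Chain ratios were compared with exact permutation tests (scipy 1.17.1). Alternatives were DESeq2 1.42.0, limma-voom (limma 3.58.1), RLE scaling, library sizes alone, 2 other filters, protein-coding transcripts alone, a test against 1.5-fold, a replicate block, each library left out, and an offset for the shift of neighbouring genes. The code was tested on simulated data.

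Values per library were given for members with at least 10 CPM in the higher genotype, and for called members with at least 1 CPM and a log2 fold change of at least 1. Those of Col1a1 were added after its values were seen. Of each list, up to 6 genes of lowest p with at least 1 CPM were named, with others marked or named for their marker role. The members and lists were chosen with earlier results of these data known. Sc65 was absent from the table and is an older name of P3h4, which is in the same list.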

Additional observations from a re-analysis of the deposited data

Results flagged for a closer look

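Each group of 4 libraries was checked for a value that stood apart from the other 3, in 46 groups over the members and chain ratios (19 members and 4 pairs), where chance flags about 1 in 20. The gap to the nearest library, as a share of the range of the group, had to exceed Dixon's critical value for 4 libraries. The 3 values that did so were the Col6a3 level of 3.67 CPM in wild-type library 4, below the other wild-type libraries by 0.875 of the range, the Col6a4 level of 1.08 CPM in knockout library 4, below the other knockout libraries by 0.989 of the range, and the Col4a1 to Col4a2 ratio of 1.77 in wild-type library 2, above the other wild-type libraries by 0.915 of the range. Leaving out single libraries ended neither the call of Col6a3 nor that of Col6a4.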

How the results depend on the processing

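The number of collagen genes that rose was 20 and the number that fell was 0. Under 18 alternative settings 0 fell, and the number that rose was 20 with DESeq2, limma-voom, RLE scaling and library sizes alone, 19 with genes of at least 1 count and with protein-coding transcripts alone, 16 where only genes averaging 1 CPM or more were tested, 14 against 1.5-fold, 21 with the neighbour shift taken out, and 17 to 19 with single libraries left out. Of the 20 genes, 14 kept the call in every setting in which they were tested, 17 in every setting but the 1.5-fold test, and 0 changed direction. Col5a1, Col6a2 and Col24a1 lost it against 1.5-fold alone. Col1a1, Col4a3 and Col4a4 lost it in 9, 8 and 7 settings, among them 6, 5 and 5 libraries left out, and limma-voom for Col4a3 (adjusted p = 0.0637). Uncalled genes passed in 5 cases: Col7a1 without wild-type library 1 (0.24), Col9a3 with the neighbour shift taken out (1.07, adjusted p = 0.0275), and Col17a1 with limma-voom (3.66), with a replicate block (3.17) and without wild-type library 2 (6.94, when all remaining wild-type libraries are at 0, so that value is no bound). The log2 fold change of Col22a1 was 6.26 with limma-voom, and it stayed called. The causes of these changes were not tested. Changes of sign were found in 3 uncalled genes with single libraries left out, over ranges of -0.65 to 0.17 for Col2a1, -0.075 to 0.26 for Col11a2 and -0.35 to 0.49 for Col20a1. The log2 chain ratio differences ranged over libraries left out from 0.028 to 0.056 for Col4a1 to Col4a2, 0.37 to 0.55 for Col6a1 to Col6a2, -1.14 to -1.01 for Col6a1 to Col6a3 and -3.64 to -2.90 for Col1a1 to Col1a2. With the replicate block 19 collagen genes rose and 0 fell. The calls of Col4a3 (adjusted p = 0.0922) and Col4a4 (adjusted p = 0.0654) were lost under the block and Col17a1 passed. Deviations of same-numbered libraries correlated at r = -0.284, 0.0779, 0.384 and 0.13 over 9977 genes, over 0.1 in 2 of 4 pairs, and not every library correlated best with its own number, so the numbers were not taken to pair samples. Over all genes 3643 rose and 3612 fell under the block, against 3742 and 3734 without it. With library sizes alone the median of all genes shifted to 0.0836, with 4543 higher and 2742 lower. Levels under 1 CPM rest on few counts per library, which limits Col4a3, Col4a4, Col2a1 and Col20a1.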

Other observations

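Itgb1, the partner of the collagen-binding integrin subunits, was listed at 0 in all 8 libraries, as were the other protein-coding genes from Itgb1 (chromosome 8, 128685654 to 128733200, GRCm38) to the end of that chromosome, 6 genes with Itgb1 itself. The next genes before it on the chromosome had reads: Nrp1 (128358604 to 128503363) had 9083 counts over the knockout group and 2305 over the wild-type group, and Pard3 (127063893 to 127612286) had 18816 over the knockout group and 22598 over the wild-type group. The Col4a1 and Col4a2 genes lie far from there, near position 11312805 of the same chromosome.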
